A study of Mus musculus with 8 samples.

Results

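Small nucleolar RNA (snoRNA) host genes are transcribed into RNAs whose introns carry snoRNAs, the guides of chemical modification of ribosomal RNA. The 9 genes described here, Gas5, Snhg1, Snhg5, Snhg6, Snhg8, Snhg12, Snhg15, Zfas1 and Epb41l4aos, were chosen by name and found through their Ensembl identifiers, and they are 9 of the 51826 genes counted. Earlier results of these data were known when the 9 were chosen, so their shared direction is not independent of the choice. After splicing, snoRNAs are trimmed from the introns and kept in the nucleolus, while the joined exons leave as a noncoding RNA. Many of these spliced RNAs begin with a 5′ terminal oligopyrimidine (TOP) tract, as the mRNAs of ribosomal proteins do, and many are broken down by nonsense-mediated decay (NMD) once ribosomes meet their short reading frames. Gas5 was named for its accumulation in growth-arrested cells, lymphocytes among them, and its RNA can bind the glucocorticoid receptor.

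Gene expression in the whole splenocyte population of female Balb/c mice was measured by RNA sequencing, to find genes that all-trans retinoic acid (tRA), the active metabolite of vitamin A, changes before lupus is induced. Of the 8 mice, 4 received tRA at 1 mg/kg body weight by mouth each day from weaning, and 4 control mice received the vehicle, canola oil, alone. Spleens of both groups were taken at an age of 3 months, and none of the mice received pristane, the oil that induces lupus in this strain. The sample descriptions carry the tRA dose for all 8 samples, so the groups rest on the sample titles, and the vehicle of the controls follows the study's own account of this experiment. The labels number samples within a group and name no animals, so that p-values measure the spread between these samples.

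Counts on genes totaled 30919272 to 37539631 per control mouse and 31810417 to 35165876 per tRA mouse. The 9 genes took between 0.0564% and 0.0925% of the counts of a library. Levels are in CPM, counts relative to the size of the library after TMM scaling, and fold changes are tRA over control on the log2 scale. All 9 genes were among the 16484 genes that passed the filter on low counts. The cells carried the markers of splenocytes. The 6 B cell markers summed to 4993 to 6070 CPM in each mouse, led by Cd79a, and the 6 T cell markers to 1185 to 1464 CPM, led by Lck. In bulk RNA, fewer cells of a type and less RNA per cell cannot be told apart.

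All 9 host genes had a lower mean level in the tRA mice than in the control mice, with log2 fold changes from -0.59 for Snhg8 to -0.16 for Snhg5. None of these differences passed the test. In the quasi-likelihood test of edgeR, adjusted over all genes by the Benjamini-Hochberg method, 0 of 9 had an FDR under 0.1, against 0% of all genes tested, and the FDR of the 9 ran from 0.757 to 0.873. DESeq2 and limma-voom also called 0 of 9, while over all genes they called 44 and 1. At an unadjusted p under 0.05 stood 2 of 9, Snhg8 and Snhg12, both lower with tRA, where 3.55% of all genes were lower and 2.94% higher at that level. The median log2 fold change was -0.29 for the 9 genes and 0.0014 for all genes, of which 49.7% had a negative value. For 0 of 9 host genes did the 4 tRA mice all lie below the 4 control mice, a separation that 1.63% of all genes had.

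The low means rested mostly on tRA mice 3 and 4. The 9 genes summed to 805, 859, 961 and 809 CPM in control mice 1 to 4, and to 919, 858, 539 and 552 CPM in tRA mice 1 to 4. These mice held the lowest values among the 8 mice for all 9 genes, while tRA mouse 1 had the highest value for 4 genes and control mouse 3 for the other 5. Across all genes tested, tRA mice 3 and 4 were the lowest pair for 1710, or 10.4%. The level in tRA mouse 3 was 45.3% to 77.4% of the control mean over the 9 genes, and in tRA mouse 4 it was 45.4% to 77.1%. In tRA mouse 1 the same share was 98.2% to 117%, and in tRA mouse 2 it was 70.9% to 117%. tRA mice 3 and 4 had totals of 35165876 and 32042754 counts, and their mitochondrial share of counts was 5.50% and 5.52%, where the 8 mice ranged from 4.06% to 7.06%. Their TMM scaling factors, 1.05 and 1.02, were the highest of the 8 libraries, which ranged down to 0.964. The part of these properties in the levels of the host genes was not tested. The median log2 fold change was -0.13 without tRA mouse 3, -0.17 without tRA mouse 4 and -0.48 without tRA mouse 1, and the genes at an unadjusted p under 0.05 numbered 0, 0 and 6 of 9 in that order. Over all genes, 866, 657 and 2105 stood at that level in the same fits, against 1070 with all mice. Without control mouse 3, whose levels were often the highest, 0 of 9 stood there, with 906 of all genes, and without control mouse 1 or 2 it was 1 of 9, with 877 and 1135 of all genes.

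**Figure D1:**
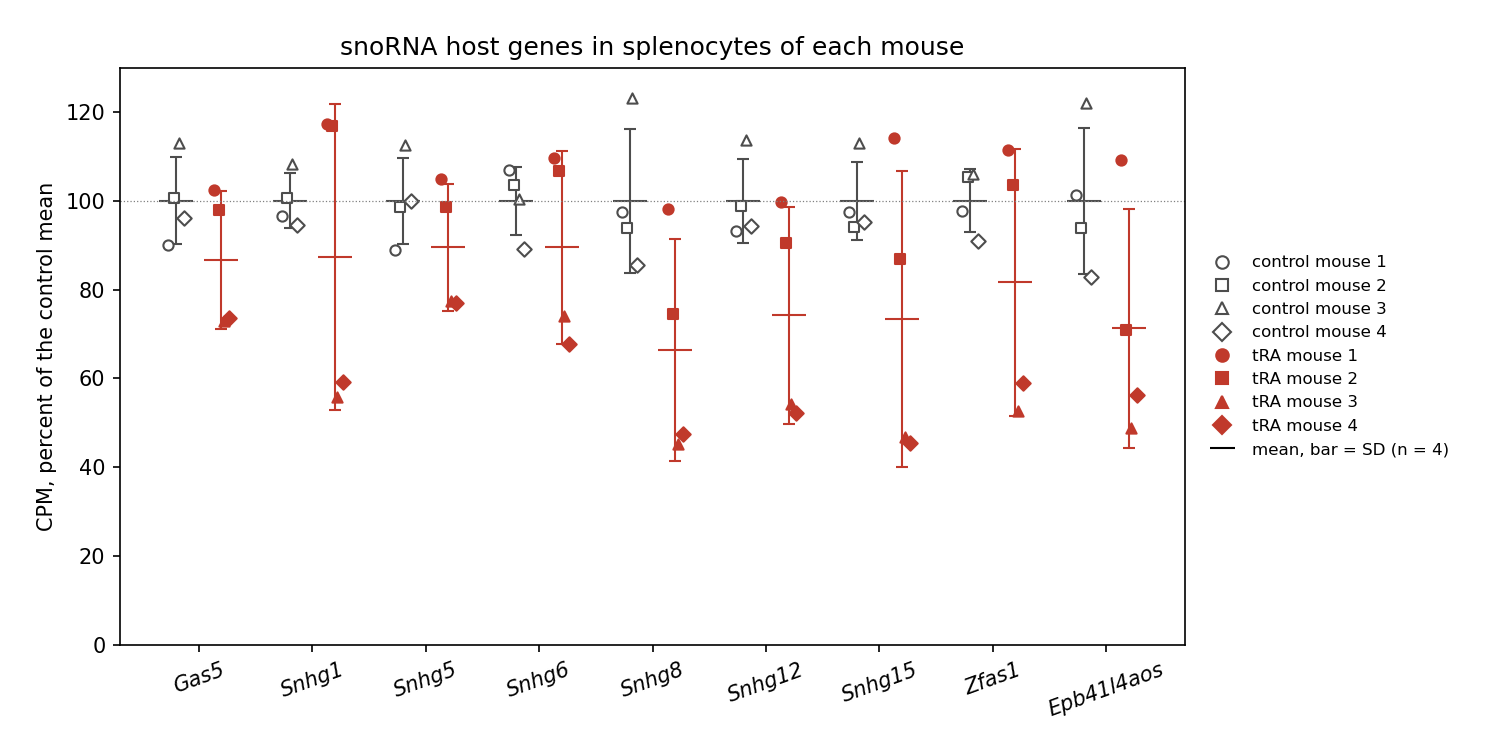
Level of each host gene in each mouse, in CPM as a percent of the mean of the 4 control mice, with symbols for mice 1 to 4 of each group and horizontal marks for the group mean with bars of 1 SD (n = 4). For all 9 genes tRA mice 3 and 4 are the lowest points, at 45.3% to 77.4% of the control mean, and at least 1 tRA mouse lies within or above the control range.

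Gas5, which holds 10 annotated snoRNA entries, had 319.7, 358, 402 and 342 CPM in control mice 1 to 4 and 364, 348, 259 and 261 CPM in tRA mice 1 to 4. tRA mice 1 and 2 lay within the control range and tRA mice 3 and 4 below it. The group levels were 355 ± 34.7 CPM (SD, n = 4) with vehicle and 308 ± 55.4 CPM (SD, n = 4) with tRA. The log2 fold change was -0.21 (standard error 0.12, 95% interval -0.48 to 0.067, FDR 0.792 by edgeR), and a two-sided exact permutation test gave p = 0.257. With 1 mouse left out the log2 fold change ranged from -0.30 (without tRA mouse 1) to -0.13 (without tRA mouse 3).

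Snhg1 lies head to head with Slc3a2, the gene of an amino acid transporter subunit. It had 193, 201, 217 and 189 CPM in control mice 1 to 4 and 235, 234, 111 and 119 CPM in tRA mice 1 to 4. The tRA values fell on both sides of the control range, 2 above it and 2 below, with none inside. The group levels were 175 ± 68.9 CPM (SD, n = 4) with tRA against 200 ± 12.3 CPM (SD, n = 4) with vehicle, and the log2 fold change was -0.20 (95% interval -0.70 to 0.31, FDR 0.873 by edgeR). Without tRA mouse 3 the log2 fold change was -0.032, without tRA mouse 4 it was -0.049, and without tRA mouse 1 or 2 it was -0.37.

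The other hosts whose nested snoRNAs all have a D box were Snhg5, Snhg6 and Zfas1, the last named for its position antisense to the 5′ end of Znfx1. Snhg5 ranged from 36.9 to 46.7 CPM in the control mice and was 43.6, 40.9, 32.1 and 31.99 CPM in tRA mice 1 to 4. Snhg6 ranged from 18.2 to 21.8 CPM in the control mice and was 22.3, 21.7, 15.1 and 13.8 CPM in tRA mice 1 to 4. Zfas1 ranged from 66.1 to 77.1 CPM in the control mice and was 81.0, 75.2, 38.3 and 42.9 CPM in tRA mice 1 to 4. In each of the 3 genes, tRA mice 3 and 4 were below every control mouse and the other tRA mice were not. The log2 fold changes were -0.16 for Snhg5, -0.16 for Snhg6 and -0.29 for Zfas1, with standard errors of 0.12, 0.15 and 0.21, and all 3 intervals included 0. With 1 mouse left out, Snhg5 ranged from -0.25 (without tRA mouse 1) to -0.095 (without tRA mouse 4), Snhg6 from -0.27 to -0.049 (the same mice) and Zfas1 from -0.48 (without tRA mouse 1) to -0.13 (without tRA mouse 3).

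Snhg8 carries Snora24, a snoRNA of the H/ACA class, which guides pseudouridylation. It had 55.7, 53.5, 70.2 and 48.8 CPM in control mice 1 to 4 and 56.0, 42.4, 25.9 and 27.1 CPM in tRA mice 1 to 4. Thus tRA mice 2, 3 and 4 lay below the lowest control mouse, and tRA mouse 1 lay inside the control range. The group levels were 57.1 ± 9.25 CPM (SD, n = 4) with vehicle and 37.9 ± 14.3 CPM (SD, n = 4) with tRA. The log2 fold change was -0.59 (standard error 0.23, 95% interval -1.09 to -0.096, FDR 0.757 by edgeR), the lowest of the 9, and the exact permutation test gave a two-sided p of 0.114, where 0.0286 is the smallest that 4 against 4 allows. Without tRA mouse 1 the log2 fold change was -0.84, and without tRA mouse 3 it was -0.45.

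Snhg12 carries H/ACA snoRNAs, among them Snora44 and Snora61, and 1 box C/D snoRNA, Snord99. Its level was 57.5, 60.9, 70.2 and 58.2 CPM in control mice 1 to 4 and 61.5, 55.9, 33.5 and 32.2 CPM in tRA mice 1 to 4. Snhg12 in tRA mouse 2 was only a little below the lowest control mouse, whereas tRA mice 3 and 4 were at 54.3% and 52.2% of the control mean. The log2 fold change was -0.43 (standard error 0.19, 95% interval -0.86 to -0.0012, FDR 0.757 by edgeR), and the two-sided p was 0.143 by the exact permutation test. With 1 mouse left out, the log2 fold change ranged from -0.61 (without tRA mouse 1) to -0.30 (without tRA mouse 4). Its unadjusted p was 0.0495, and it was 0.0505 with RLE size factors and 0.0506 with the filter of at least 10 counts in every sample.

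Snhg15 and Epb41l4aos each hold a single nested snoRNA. Epb41l4aos is named for its place on the strand opposite to Epb41l4a, which does not overlap it in the annotation. Snhg15 had 34.2, 33.0, 39.6 and 33.4 CPM in control mice 1 to 4 and 40.0, 30.5, 16.4 and 15.9 CPM in tRA mice 1 to 4, so that tRA mouse 1 was the highest of the 8. Epb41l4aos, the lowest of the 9 in CPM without regard to length, had 14.99, 13.9, 18.03 and 12.2 CPM in control mice 1 to 4 and 16.2, 10.5, 7.21 and 8.31 CPM in tRA mice 1 to 4. In both genes 3 tRA mice lay below the control range. The log2 fold changes were -0.45 for Snhg15 and -0.49 for Epb41l4aos, with standard errors of 0.26 and 0.23 and FDR values of 0.791 and 0.761 by edgeR, and both intervals included 0. With 1 mouse left out, Snhg15 ranged from -0.74 (without tRA mouse 1) to -0.28 (without tRA mouse 4) and Epb41l4aos from -0.77 (without tRA mouse 1) to -0.35 (without tRA mouse 3).

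**Figure D2:**
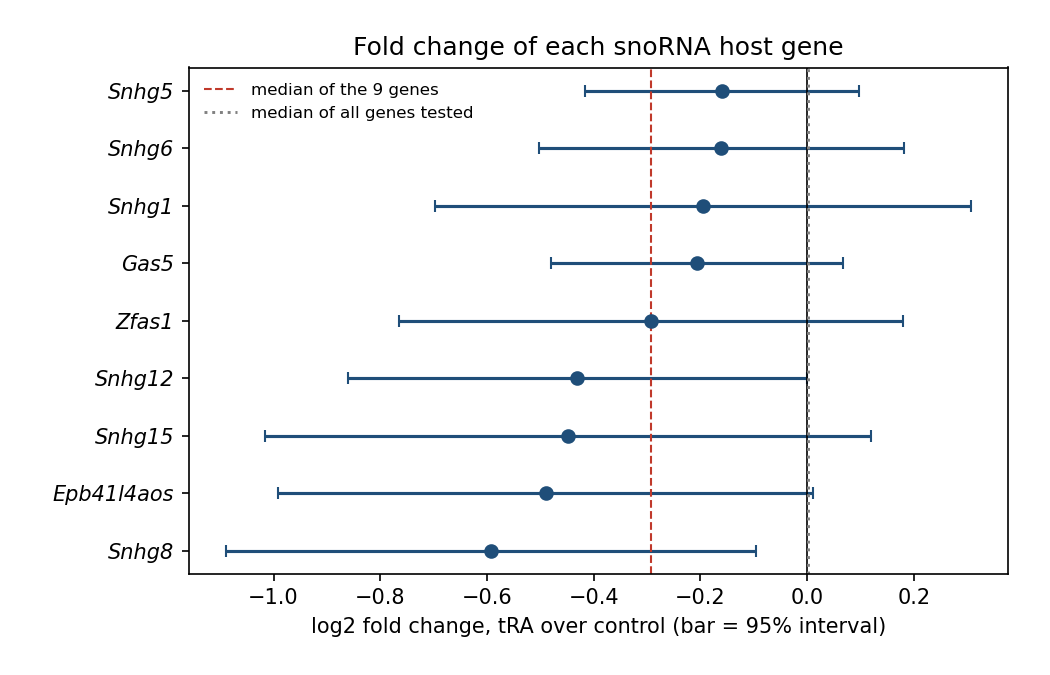
Log2 fold change of each host gene, tRA over control, from edgeR (points) with its 95% interval (bars), beside the median of the 9 genes (dashed line, -0.29) and of all genes tested (dotted line, 0.0014). All 9 points lie below 0, and the intervals of Snhg8 and Snhg12 alone leave out 0, that of Snhg12 only just.

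Per length of merged exons, Gas5 was the most abundant host with a mean of 88.2 CPM per kb over the 8 mice, followed by Snhg1 at 63.1 and Snhg8 at 55.6 CPM per kb. Epb41l4aos came next at 29.5 CPM per kb, then Snhg5 at 22.7, Zfas1 at 22.5, Snhg12 at 22.4 and Snhg15 at 22.4, and Snhg6 was last at 16.8 CPM per kb. From Snhg5 to Snhg15 this is the order of the tRA mice, with means of 21.5, 20.3, 19.1 and 18.9 CPM per kb, and the control mice had the reverse order, with means of 23.99, 24.8, 25.7 and 25.8 CPM per kb. The ranges over the 8 mice overlapped for every pair of neighbours in this order. Within a mouse, Gas5 was above Snhg1 and Snhg8 above Epb41l4aos in all 8, Epb41l4aos above Snhg5 in 7, and Snhg5 above Zfas1 in only 4. The exon lengths include annotated transcripts that retain introns, so that Snhg1, Snhg8, Snhg12 and Zfas1 count as 1 merged exon, and levels per kb depend on this.

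The 9 genes varied together from mouse to mouse. Over the 8 mice, Pearson's r of log2 CPM was positive for all 36 pairs, from 0.791 between Snhg5 and Snhg6 to 0.989 between Gas5 and Snhg5, with a median of 0.934. Spearman's rho had a median of 0.822 over the same pairs and reached 1 between Snhg8 and Epb41l4aos. With each group's mean removed, r had a median of 0.924. These values are descriptions over 8 libraries, each scaled once for all genes, and tRA mice 3 and 4 are the low points of every pair. Within the 4 control mice alone, where control mouse 3 was often the highest, r was positive for 34 of 36 pairs with a median of 0.750 and a lowest value of -0.338, between Snhg5 and Snhg6.

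Among the tested genes outside the 9, those whose log2 CPM followed the mean of the host genes most closely over the 8 mice were Ddit3 (r = 0.997), Mir22hg (0.992), Iglc2 (0.990), Klf4 (0.988) and Odc1 (0.988). Ddit3, a transcription factor of the integrated stress response, had 59.8, 65.4, 76.7 and 59.2 CPM in control mice 1 to 4 and 74.8, 56.0, 25.3 and 24.7 CPM in tRA mice 1 to 4. Odc1, the first enzyme of polyamine synthesis, had 166, 166, 181 and 162 CPM in control mice 1 to 4 and 170.2, 159, 87.9 and 88.9 CPM in tRA mice 1 to 4. Like the host genes, both had their lowest values in tRA mice 3 and 4, which follows from their choice by likeness over the same 8 mice. The genes that ran most opposite were Aldh3a2 (r = -0.991), S1pr2 (-0.978), Zbtb26 (-0.975), Gm45606 (-0.972) and Tada1 (-0.971). Zbtb26, a zinc finger protein, was at 4.45 to 5.53 CPM in the control mice and at 4.61, 5.70, 8.41 and 9.14 CPM in tRA mice 1 to 4.

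The annotation places 32 snoRNA entries inside the 9 host genes, 10 in Gas5, 8 in Snhg1, 5 in Snhg12, 3 in Zfas1, 2 in Snhg5 and 1 in each of the other 4. Snord80 in Gas5 and Snora16a in Snhg12 are each entered more than once at nearly the same position, so the entries outnumber the snoRNAs. A box C/D snoRNA has a C box near its 5′ end and a D box, CTGA, near its 3′ end, and directs 2′-O-methylation, while an H/ACA snoRNA is longer. A search of the transcript strand found CTGA in the last 20 bases of 25 entries, which were 60 to 126 bases long, and not in the other 7, which were 129 to 137 bases long. The 5 hosts whose entries all had CTGA there, Gas5, Snhg1, Snhg5, Snhg6 and Zfas1, had log2 fold changes of -0.29 to -0.16 with a median of -0.20. The 4 hosts with an entry that lacked it, Snhg8, Snhg12, Snhg15 and Epb41l4aos, had log2 fold changes of -0.59 to -0.43 with a median of -0.47. This grouping of the hosts was made after their values were seen, and it was not tested. As a percent of the control mean, the first kind was at 97.9% to 117% and the second at 70.9% to 90.5% in tRA mouse 2, and at 59.0% to 77.1% against 45.4% to 56.2% in tRA mouse 4. The ranges of the 2 kinds overlapped in tRA mouse 1, and in tRA mouse 3, where Zfas1 was at 52.7% and Snhg12 at 54.3%.

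Almost no counts fell on the snoRNAs themselves. Of the 32 entries, 29 had 0 counts in all 8 libraries. All of these 29 lie in annotated exons of transcripts that retain the intron, so that reads there also match the host. Another entry in host exons, of Snora16a in Snhg12, had 2 counts. The cause of the 0 counts was not tested. The 2 entries outside host exons were Snord87 in Snhg6, with 41 counts over the 8 libraries, and the entry in Epb41l4aos, with 51. All entries together had 8 to 17 counts per library, against 18070 to 33245 for the hosts. These counts were too few to compare snoRNA levels between the groups. The sequence of Snord87 is shown because it is the box C/D snoRNA that could be counted apart from its host, with its C box (TGATGA) and its D box (CTGA) in capitals. It lies at chr1:9942463-9942549 on the minus strand of GRCm38, in an intron of Snhg6, and its sequence is that of the GENCODE transcript.
Snord87: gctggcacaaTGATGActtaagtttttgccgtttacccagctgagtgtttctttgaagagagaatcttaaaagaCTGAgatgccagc

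As the host genes moved together, the starts of their RNAs were examined for the TOP tract, in RefSeq windows of GRCm38.p6 that reach from 250 bases before to 50 bases after a start. Of the 9 genes, 7 had a window, with 2 starts for Gas5, and Snhg6 and Epb41l4aos had no entry. A C at the start followed by 4 bases that are each C or T was found in 2 of the 8 windows, the downstream start of Gas5 and that of Snhg8, and in 2.51% of 32851 windows of all genes. The longest run of C and T that touched the 10 bases on either side of the start had a median of 6.5 bases in the 8 windows and 4 in all windows. A run of at least 8 bases was found in 2 of the 8, Snhg12 and Snhg1 with 9 bases each, and in 13.7% of all windows. Windows of 30 bases, 15 on either side of the start, are shown for the 5 starts with a run of 6 bases or more, on the strand of the gene, with that run in capitals. They lie at chr1:161035151-161035180 (Gas5, plus strand), chr3:123508322-123508351 (Snhg8, minus strand), chr4:132308663-132308692 (Snhg12, plus strand), chr9:88522883-88522912 (Snhg5, minus strand) and chr19:8723472-8723501 (Snhg1, plus strand).
Gas5: agccgccatctcagCCTTTCggagctgtgc
Snhg8: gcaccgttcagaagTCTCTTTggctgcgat
Snhg12: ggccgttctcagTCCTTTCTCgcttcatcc
Snhg5: gagctgcggtgaaccgggctcgTTCTTTTa
Snhg1: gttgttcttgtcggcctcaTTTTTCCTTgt
In Gas5 the run begins 1 base before the start, in Snhg8 likewise, in Snhg12 3 bases before it, in Snhg1 at base 5 and in Snhg5 at base 8 of the RNA. The upstream start of Gas5 had a run of 3 bases, and Zfas1 and Snhg15 had runs of 4. Direct repeats of the half-site AGGTCA, or of its variants AGTTCA and also GGGTCA and also GGTTCA, with spacers of 1, 2 or 5 bases, the form that retinoic acid receptors bind, were searched on both strands and found in 0 of the 8 windows and in 0.588% of all windows.

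By GENCODE M21 on GRCm38, Gas5 (ENSMUSG00000053332) lies at chr1:161034422-161038539, Snhg1 (ENSMUSG00000108414) at chr19:8723475-8726443, Snhg8 (ENSMUSG00000104960) at chr3:123507552-123508404 and Snhg12 (ENSMUSG00000086290) at chr4:132308623-132311024. Whether counting used the strand is not given in the sources used here, and the kit does not mark it, so that genes opposite a host bear on its count. Zfas1 shares 82 exonic bases with Znfx1, which had 102 CPM in the control mice and 103 CPM in the tRA mice (log2 fold change 0.027). Snhg6 shares 127 exonic bases with Mcmdc2, which had 95 counts over the 8 libraries and was not tested. Gas5 overlaps the gene body of Zbtb37 but none of its exons, and Zbtb37 had 29.4 and 29.2 CPM in the groups (log2 fold change -0.012). Slc3a2 starts 106 bases from Snhg1 and had 192 ± 2.99 CPM (SD, n = 4) with vehicle and 170.2 ± 28.9 CPM (SD, n = 4) with tRA (log2 fold change -0.17, FDR 0.793 by edgeR).

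The other noncoding hosts were mixed in direction. Of 12 listed, 8 were tested, 4 with a negative (49.7% of all genes) and 4 with a positive log2 fold change. Their median was -0.15, and 1 was lower at an unadjusted p under 0.05 (3.55% of all genes). Snhg17, the most abundant of them, had 62.0, 64.5, 72.6 and 65.1 CPM in tRA mice 1 to 4 and 65.0 ± 3.78 CPM (SD, n = 4) in the control mice, so that it was not low in tRA mice 3 and 4. The 8 genes summed to 83.2, 83.3, 88.8 and 83.2 CPM in tRA mice 1 to 4, all within the control range of 82.6 to 91.4 CPM. Their mean centred log2 CPM, in which each gene has the same weight, was lowest in tRA mice 3 and 4, at -0.14 and -0.30, against -0.023 to 0.17 in the control mice, but 3 of the 8, Snhg3, Snhg10 and Dancr, were below 1 CPM in every mouse. Snhg20 was at 13.8 ± 1.94 CPM (SD, n = 4) with vehicle and 11.0 ± 1.51 CPM (SD, n = 4) with tRA, and its log2 fold change was -0.32 (FDR 0.757 by edgeR).

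Among 34 protein-coding genes that host snoRNAs, mostly of ribosomal proteins and translation factors, 32 had a negative log2 fold change (49.7% of all genes). Of the 34, 13 were lower at an unadjusted p under 0.05 (3.55% of all genes), with a median of -0.18 and 0 at an FDR under 0.1. Their mean log2 CPM, centred on the 8 mice, was 0.14, -0.069, -0.29 and -0.20 in tRA mice 1 to 4, against 0.30, 0.093, -0.60 and -0.56 for the 9 noncoding hosts. Rps20, a protein of the small ribosomal subunit, had 545, 413, 324 and 387 CPM in tRA mice 1 to 4 and 512 to 678 CPM in the control mice, a log2 fold change of -0.52. Rpl27a, of the large subunit, had one of -0.41. Tpt1 and Eef2, the most abundant genes of this list, had log2 fold changes of -0.24 and -0.087. Of 20 other TOP mRNAs, 16 had a negative log2 fold change and 3 were lower at an unadjusted p under 0.05, with a median of -0.082. Their mean centred log2 CPM was also lowest in tRA mice 3 and 4, at -0.18 and -0.16, against -0.065 to 0.21 in the control mice. Eef1a1, the most abundant of them, had one of 0.045, Fau one of -0.39 and Eef1b2 one of -0.35. Eef1b2, Eef2, Rack1 and Tpt1 stand in both lists.

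Proteins bind the snoRNAs in stable particles. Of 8 core proteins of the particles, 6 had a negative log2 fold change (49.7% of all genes), with a median of -0.16 for the list. Nop56 and Dkc1 stand both in this list and in that of the protein-coding hosts. Of the 8, 2 were lower at an unadjusted p under 0.05 (3.55% of all genes). Nop10, of the H/ACA particle, was at 28.3 to 34.1 CPM in the control mice and at 26.5, 23.5, 22.6 and 24.2 CPM in tRA mice 1 to 4, so that the groups did not overlap, as in 1.63% of all genes (log2 fold change -0.36, FDR 0.757 by edgeR). Nop10 was thus low in all 4 tRA mice, but the list as a whole was lowest in tRA mice 3 and 4, as the host genes were, with a mean centred log2 CPM of 0.080, -0.013, -0.20 and -0.13 in tRA mice 1 to 4 and -0.044 to 0.20 in the control mice. Fbl, the methyltransferase of box C/D particles, had a log2 fold change of -0.23, Nop56 one of -0.071 and Nop58 one of 0.073. Of 9 assembly factors, 8 had a negative log2 fold change and 0 passed an unadjusted p of 0.05, with a median of -0.074 and values of 0.022 for Nolc1, -0.087 for Ruvbl2 and -0.11 for Znhit6, and their mean centred log2 CPM was also lowest in tRA mice 3 and 4, at -0.11 and -0.16, against -0.070 to 0.16 in the control mice.

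NMD acts on the host RNAs themselves. Of 15 NMD factors, 8 had a negative (49.7% of all genes) and 7 a positive log2 fold change, with a median of -0.014 and 0 at an unadjusted p under 0.05. Their mean centred log2 CPM was 0.069, -0.0085, -0.097 and -0.053 in tRA mice 1 to 4 and -0.044 to 0.076 in the control mice. By this measure tRA mice 3 and 4 were lowest, tRA mouse 4 only just. The same factors summed to 1764, 1709, 1671 and 1788 CPM in tRA mice 1 to 4 and to 1682 to 1809 CPM in the control mice. By the sum, tRA mouse 4 was thus within the control range. The kinase Smg1 had a log2 fold change of 0.033, and the exon junction proteins Rbm8a and Magoh had -0.35 and -0.33. Of 11 genes of mTORC1 and Larp1, which control translation of TOP mRNAs, 8 had a positive log2 fold change, with a median of 0.028 for the list. At an unadjusted p under 0.05, 1 was higher (2.94% of all genes), Rps6kb1 at 0.14. For this list tRA mice 3 and 4 were the highest, with a mean centred log2 CPM of 0.057 and 0.070, against -0.084 to 0.011 in the control mice. Larp1 had a log2 fold change of 0.0080, Eif4ebp2 one of 0.028 and Eif4ebp1 one of -0.16. Of the glucocorticoid receptor and its targets, to which Gas5 relates, 5 of 8 had a negative log2 fold change, with a median of -0.042 and 0 at an unadjusted p under 0.05. Tsc22d3 was at 1198, 846, 372 and 537 CPM in tRA mice 1 to 4 and at 749 to 1162 CPM in the control mice. Per1 and Ddit4 had log2 fold changes of -0.26 and -0.32, and Fkbp5 one of 0.17.

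Some mRNAs are induced by stress and known to be degraded by NMD. All 8 of those tested had a negative log2 fold change (49.7% of all genes), with a median of -0.29. At an unadjusted p under 0.05 stood 0 of 8, and Chac1 did not pass the filter. Their mean centred log2 CPM was 0.33, 0.073, -0.75 and -0.48 in tRA mice 1 to 4 and 0.086 to 0.34 in the control mice. Atf4, the most abundant, had 569.7, 429.9, 291 and 307 CPM in tRA mice 1 to 4 and 442 to 624 CPM in the control mice, a log2 fold change of -0.34. Atf3, which also stands in the list of immediate early and heat shock genes, had one of -0.42 and Sesn2 one of -0.23.

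Immediate early genes, which cells induce within minutes of a stimulus, were lowest in the same mice as the host genes, and heat shock genes were lowest in tRA mice 1 and 3. All 14 had a negative log2 fold change (49.7% of all genes), and the median was -0.55. Of the 14, 7 were lower at an unadjusted p under 0.05 (3.55% of all genes) and 5 had groups that did not overlap (1.63% of all genes). They summed to 19097, 17628, 19485 and 16095 CPM in control mice 1 to 4 and to 16637, 14001, 6191 and 9152 CPM in tRA mice 1 to 4, with no listed gene at 0. Fos was the most abundant by mean over the control mice and tRA mice together, with a log2 fold change of -0.52, and Fosb, Jun and Egr1 had -0.71, -0.58 and -0.80. For the 10 immediate early genes of the list, Fos, Fosb, Jun, Junb, Egr1, Egr2, Nr4a1, Ier2, Dusp1 and Atf3, tRA mice 3 and 4 were the lowest of the 8 mice. For the 4 heat shock genes, Hspa1a, Hspa1b, Dnajb1 and Hsph1, tRA mice 1 and 3 were the lowest, and Hspa1a had 127, 296, 77.3 and 307 CPM in tRA mice 1 to 4. The order within the list was looked up after the values were seen, and the part of these genes in the result for the host genes was not tested.

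**Figure D3:**
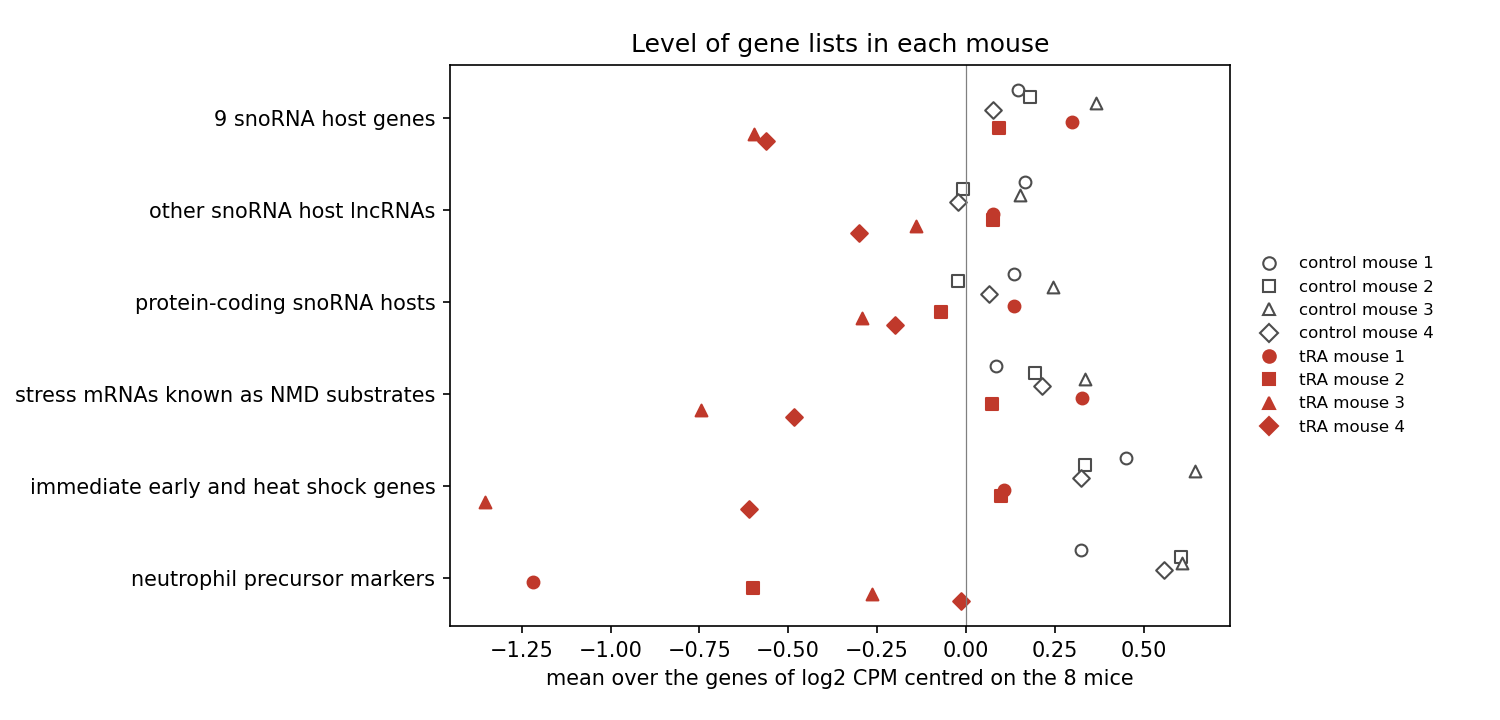
Mean over the genes of each list of log2 CPM centred on the 8 mice, for the 9 host genes and 5 other lists, with 1 symbol per mouse, open for control and filled for tRA. tRA mice 3 and 4 are lowest for the 9 host genes (-0.60 and -0.56) and for the immediate early and heat shock genes (-1.35 and -0.61), whereas tRA mouse 1 is lowest for the neutrophil precursor markers (-1.22).

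Markers of cell types were followed beside the host genes. The 6 neutrophil precursor markers were all lower at an unadjusted p under 0.05 (3.55% of all genes). Their median log2 fold change was -0.96, and 49.7% of all genes had a negative value. These 6 markers summed to 490.0, 611, 650.2 and 553 CPM in control mice 1 to 4 and to 216, 265, 294 and 423 CPM in tRA mice 1 to 4. This order differs from that of the host genes, as tRA mouse 1 was lowest here and tRA mouse 4 highest of the tRA mice. Ngp was their most abundant gene, and none was at 0. The B cell markers summed to 5324 and 5387 CPM in tRA mice 3 and 4 and the T cell markers to 1384 and 1343 CPM, within the range of the control mice for both. The median log2 fold change was -0.0092 for the B cell markers (3 of 6 negative) and 0.11 for the T cell markers (2 of 6 negative). It was 0.047 for 4 NK cell markers (2 negative), -0.17 for 4 mature neutrophil markers (2 negative, both at an unadjusted p under 0.05), -0.018 for 5 red pulp macrophage markers (3 negative) and -0.090 for 5 dendritic cell markers (4 negative). Erythroid markers varied most from mouse to mouse, from 491 to 2396 CPM in the control mice and from 587 to 3541 CPM in the tRA mice, with 5 of 6 positive and a median of 0.44. The median was -0.077 for 4 plasma cell markers (2 negative, of which Jchain, at -0.46, stood at an unadjusted p under 0.05), -0.078 for 5 proliferation markers (3 negative) and 0.0017 for 3 of 4 stromal markers (1 negative). The part of these cell types in the levels of the host genes was not tested.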

How the data were processed

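Libraries from splenocyte RNA were made with the Illumina TruSeq v2 kit and run on a single lane. The authors deposited raw counts per gene, without normalization, for 51826 Ensembl genes. The study's methods name ea-utils, Btrim, Bowtie2, Tophat2 and HTSeq, whereas the submitters' processing notes name STAR 2.5.2b, featureCounts 1.5.1 and DESeq2 1.26.0 on GRCm38, and which made the counts is not settled. A table of the authors' own DESeq2 comparison, with fold changes and p-values, was not used.

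GENCODE M21 gave symbols and positions for 51633 identifiers and none for 193. The analysis ran in R 4.3.3, with edgeR 4.0.16 for the main test (filterByExpr with a minimum of 10 counts, TMM, the quasi-likelihood test, Benjamini-Hochberg adjustment, FDR under 0.1), and figures were drawn in Python 3.11.15 with matplotlib 3.10.9. Log2 CPM used a prior count of 2. Alternatives were DESeq2 1.42.0, limma-voom (limma 3.58.1), RLE size factors, library size alone, upper quartile, no filter, at least 10 counts in every sample, a replicate block and each mouse left out in turn. Libraries of a group differed from each other beyond sampling noise (chi-square over degrees of freedom 12.9 to 65.4).

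The 9 genes and the lists were chosen with earlier results of these data known. Genes named were the 9, overlapping, neighbouring and nested genes, the 5 most and 5 least alike in level, and in each list the 2 most abundant and the 2 with the smallest unadjusted p, of which 1 gene is not reported here. Of each cell type list, the sum or counts and the median are given, in part with its most abundant gene, and Jchain was named after its values were seen.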

Additional observations from a re-analysis of the deposited data

Results flagged for a closer look

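Of 20 sets of 4 mice examined, each host gene and their mean in each group, 0 held a mouse whose gap to the others passed Dixon's critical value, where chance gives about 1. Dixon's test looks for 1 mouse apart from the others, so it does not bear on tRA mice 3 and 4, which were low together.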

How the results depend on the processing

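The median log2 fold change of the 9 host genes was negative in all 16 alternatives, from -0.37 to -0.28 over the 8 other settings and from -0.48 (without tRA mouse 1) to -0.13 (without tRA mouse 3) with 1 mouse left out, and 0 of 9 genes had a positive value in any of them. In none of the 16 did a host gene reach an FDR under 0.1, and the lowest FDR was 0.193, without tRA mouse 1.

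The number of host genes at an unadjusted p under 0.05, 2 with all mice, was followed over the settings after the data were seen. It was 1 with RLE size factors or at least 10 counts in every sample, where Snhg12 was lost and 1077 and 1025 of all genes stood at that level. It was 3 with DESeq2, library size alone or the upper quartile, where Epb41l4aos was added, with 1154, 1158 and 1118 of all genes. It was 4 without a filter, with limma-voom and with the replicate block, where Snhg15 and Epb41l4aos were added, with 1592, 1113 and 1200 of all genes. With 1 mouse left out it ranged from 0 (without control mouse 3, tRA mouse 3 or tRA mouse 4) to 6 (without tRA mouse 1), and it was 1 without control mouse 1 or 2. Over all genes, 0 had an FDR under 0.1 and 1070 an unadjusted p under 0.05, against 44 at an FDR under 0.1 with DESeq2, 6 without a filter and 1 with limma-voom. With 1 mouse left out these counts ranged from 0 to 3 (without tRA mouse 4) and from 657 (without tRA mouse 4) to 2105 (without tRA mouse 1). The cause of these changes was not tested.

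Deviations from the group means had correlations of 0.16, -0.023, -0.014 and 0.26 between same-numbered mice. Mice with different numbers were not compared in this way, so whether the numbers pair the mice was not settled. With the replicate block 0 genes had an FDR under 0.1, and the median of the host genes was -0.36. Of the comparisons between a setting and the fit with all mice, 207 kept their direction, call or approximate count and 17 moved, with 0 reversed. A single gene counted as kept if its sign and its side of an FDR of 0.1 held, however much its fold change shrank. The median of the host genes counted as kept if its sign held and it shifted by less than 0.457, which is more than its own size. The tally therefore says little about the size of the changes. The median log2 fold change of all genes was at most 0.031 under each scaling. Counts per library ran from 266 to 624 for Epb41l4aos and from 8552 to 13902 for Gas5, with standard errors of 0.23 and 0.12.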
